A study of Mus musculus with 7 samples.

Results

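Arginine is taken up by macrophages and split along competing routes, and 10 genes of these routes were described here in macrophages sorted from healing sciatic nerve. The genes were chosen by symbol from the 23361 listed in the deposited table, and all 10 were found: Slc7a1, Slc7a2, Arg1, Arg2, Nos2, Ass1, Asl, Odc1, Srm and Sat1. Wild-type BALB/cJ mice had the left sciatic nerve cut and repaired at once with an inert conduit, and the tissue that bridged the gap was collected 5, 14 or 28 days later. Cells were sorted as Lin-F4/80+CD14+CD11b+CD16/32+, a gate that takes macrophages and excludes granulocytes, lymphocytes, red cells and fibroblasts by surface markers. RNASeq libraries were 3 from day 5, 2 from day 14 and 2 from day 28, so that the 2 later time points had fewer libraries here than the study describes. No uninjured group was among the samples analysed here, so day 5 was the earliest reference. The submitters call the replicates independent and biological, but whether a library came from 1 mouse or from a pool is not given in the sources used here.

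Macrophages import arginine through cationic amino acid transporters of the plasma membrane. Inside the cell, arginases cut it to ornithine and urea, whereas the inducible nitric oxide synthase oxidises it to nitric oxide and citrulline, and citrulline can be turned back into arginine by argininosuccinate synthase and argininosuccinate lyase. Ornithine feeds the polyamines, small charged molecules needed for growth, and proline, a building block of collagen. In macrophages, arginase 1 is widely used as a marker of alternative activation by IL4, and the inducible synthase as a marker of classical activation by IFNγ and bacterial products.

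Each library held between 18027190 and 35247116 fragments in genes. All 8 macrophage markers examined were above 3 fragments in every library, but their levels were not constant. Emr1 was at 365 to 470 FPKM at day 5 and at 195 and 209 at day 28. Fcgr1 was at 154 to 171 FPKM at day 5 and at 51.4 and 45.0 at day 28. Cd14, Cd68 and Itgam were also lower in both day 28 libraries than in all of day 5. Lyz2 was higher in both, and Csf1r and Mertk overlapped with day 5. The part of these changes in the results below was not tested. Of the cell types outside the gate, the defining genes Cd3e of T cells, Sox10 of Schwann cells and Epx of eosinophils were at most 0.18, 0.0879 and 0.0165 FPKM. Other markers of these lists were higher: Lck reached 0.737 FPKM, Ccr3 was at 0.957 to 3.42 and Mbp at 10.3 to 19.8. FPKM are fragments scaled to the length of the transcript and the size of the library, so that genes of different length can be compared. Other lists moved with time: the summed FPKM of 5 endothelial markers was 14.6 to 26.4 at day 5, 7.42 to 13.4 at day 14 and 3.66 to 6.82 at day 28, a fall carried by Kdr and Pecam1 while Cdh5, at 0.768 to 1.82, was highest in a day 28 library. The sum of 6 fibroblast markers reached 222 in day 14 replicate 1 against 27.8 to 80.2 in the other libraries. The 5 erythroid markers summed to 28.2 to 43.6 at day 5, 7.52 to 49.4 at day 14 and 2.22 to 9.85 at day 28. The endothelial and erythroid sums were thus lower at day 28, as were Arg1, Arg2 and Nos2 below, and their part in those results was not tested. In a bulk sample, fewer cells of a type and less RNA per cell cannot be told apart.

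Of the 10 genes, Ass1 needs its sequence to be read with its values. Ass1 encodes argininosuccinate synthase and lies at chr2:31470207-31520672 on the plus strand of mm10 in the GENCODE annotation. A processed pseudogene, Gm5424, an intronless copy without a known protein product, lies at chr10:62071123-62072362 on the plus strand. The 1239 coding bases of Ass1 and Gm5424 differed at 6 positions, an identity of 99.5%. Counted from 1 at the first coding base, with the Ass1 base first, the differences were T399C, T429C, A520T, G656C, T1011C and C1143T. The stretch below covers coding bases 340 to 429, and it is shown because it holds the 2 differences that lie closest together. Capitals mark the differing bases, T60C and T90C when counted from 1 at the start of the stretch.
Ass1: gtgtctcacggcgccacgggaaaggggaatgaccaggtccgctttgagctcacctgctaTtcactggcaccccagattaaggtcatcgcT
Gm5424: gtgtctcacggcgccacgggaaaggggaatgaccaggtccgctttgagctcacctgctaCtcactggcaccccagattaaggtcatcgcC
Of the stretches of 75 bases in the Ass1 transcript, 46.9% occurred without a difference in Gm5424 as well. These sequences are of the reference strain in GENCODE release transcripts, not of the BALB/cJ mice.

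The levels at day 5 set the scale of the pathway. Arg1 was the highest of the 10 genes in every day 5 library, between 656 and 998 FPKM, and ranked as high as the 69th gene of all in one library. Sat1, the enzyme that acetylates polyamines for export or breakdown, came next at 367 to 418 FPKM, and Arg2, the mitochondrial arginase, after it at 169.9 to 237. Odc1 at 42.6 to 52.0 FPKM, Asl at 27.8 to 32.4 and Srm at 12.5 to 14.9 stood lower, and the day 5 ranges of these 6 genes did not overlap with each other. Nos2, Ass1, Slc7a1 and Slc7a2 were lowest, with day 5 ranges that overlapped one another between 1.53 and 10.5 FPKM. The place of Ass1 holds only for its values as listed, since its fragments were divided with Gm5424, as given below. Gm5424 was listed at 18.3 to 27.8 FPKM at day 5. At day 14 the order at the top was reversed, with Sat1 above Arg1 in both libraries and again in both libraries of day 28. Arg1 made up 49.35 to 57.45% of the summed FPKM of the 10 genes at day 5, 24.08 to 32.82% at day 14 and 32.08 to 37.82% at day 28.

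**Figure D1:**
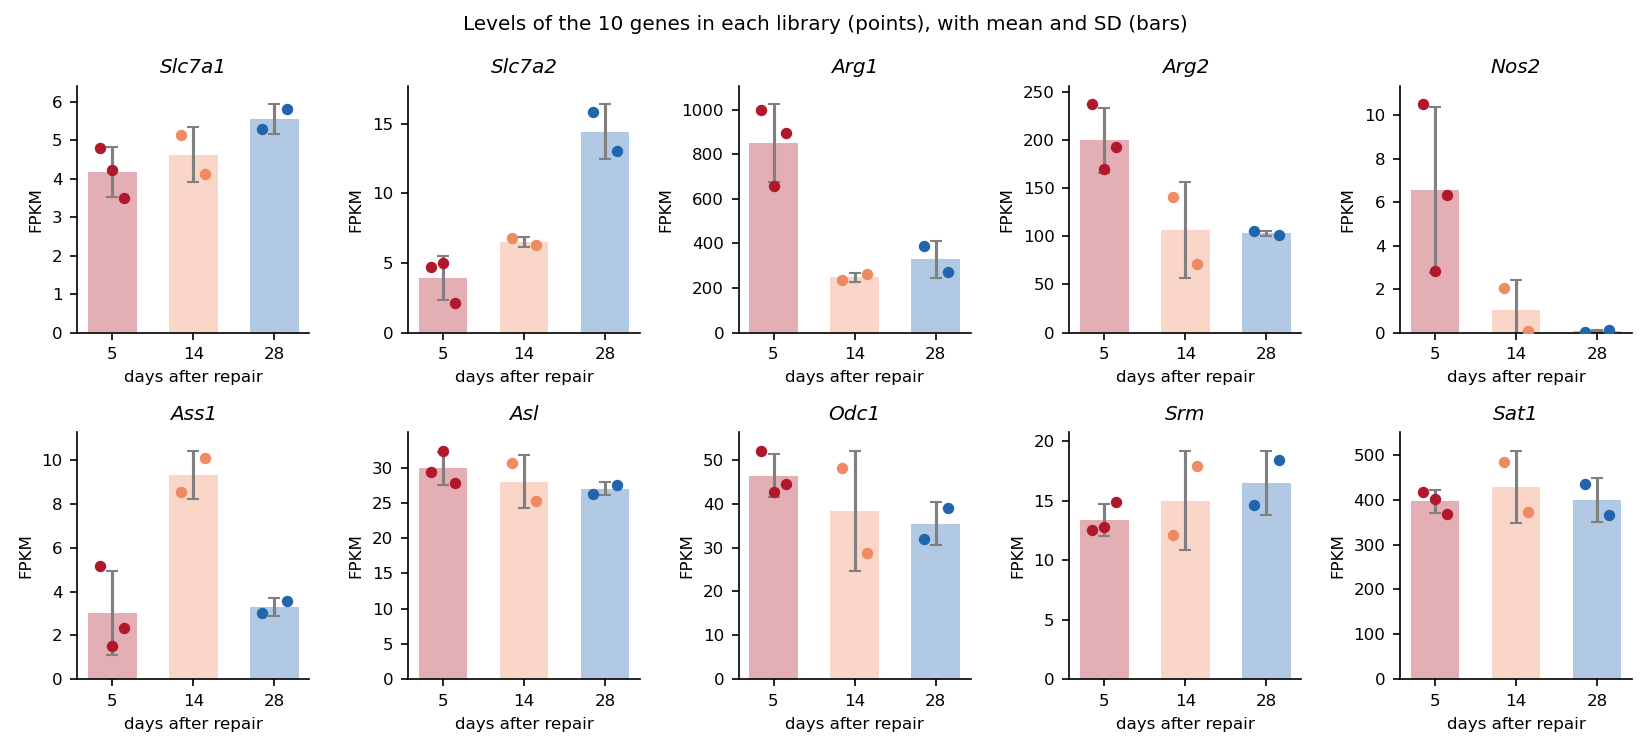
FPKM of each of the 10 genes (vertical axes, linear and from 0, a scale of its own for each gene) at 5, 14 and 28 days after repair (horizontal axes). Points are libraries, bars are means and whiskers 1 SD (n = 3, 2 and 2; whiskers are clipped at 0); Arg1 stood at 656 to 998 FPKM in day 5 and at 235 to 387 in all later libraries, while Slc7a2 rose to 13 and 15.8 by day 28.

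Differences between time points were tested for every gene with edgeR's quasi-likelihood test over all 7 libraries, and genes with a Benjamini-Hochberg adjusted p under 0.05 over the 12858 tested genes were called. All 10 members were tested in each comparison. From day 5 to day 14, 1 of 10 was called, Arg1, which fell. Of all genes tested, 4.78% were called in that comparison, 2.84% higher and 1.94% lower. From day 14 to day 28, none of the 10 was called by edgeR, against 0.0622% of all genes. At an unadjusted p under 0.05 there were 3, beside 12.2% of all genes, and DESeq2 called 2, Ass1 and Slc7a2, beside 2.58%. From day 5 to day 28, 4 of 10 were called, with Slc7a2 higher and Arg1, Arg2 and Nos2 lower. The background was 15.2% of all genes, 7.73% higher and 7.51% lower. Median log2 changes of the 10 genes were 0.02, -0.04 and -0.05 in the order given, beside 0.03, 0.01 and 0.03 over all genes tested, so the group as a whole did not shift one way. By the added demands of at least a 2-fold difference in mean FPKM and a mean of at least 5 FPKM at one of the times, Arg1 passed from day 5 to day 14, and Slc7a2, Arg1 and Nos2 from day 5 to day 28. Comparisons that include the same time point share its libraries and are not independent. With so few libraries, values without overlap between time points were common among the 12858 genes. From day 5 to day 14, 2810 were higher and 2749 lower without overlap, beside 2 and 3 members. From day 14 to day 28 these were 2479 and 2535, beside 3 and 1 members. From day 5 to day 28 they were 3337 and 3287, beside 2 and 5 members.

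**Figure D2:**
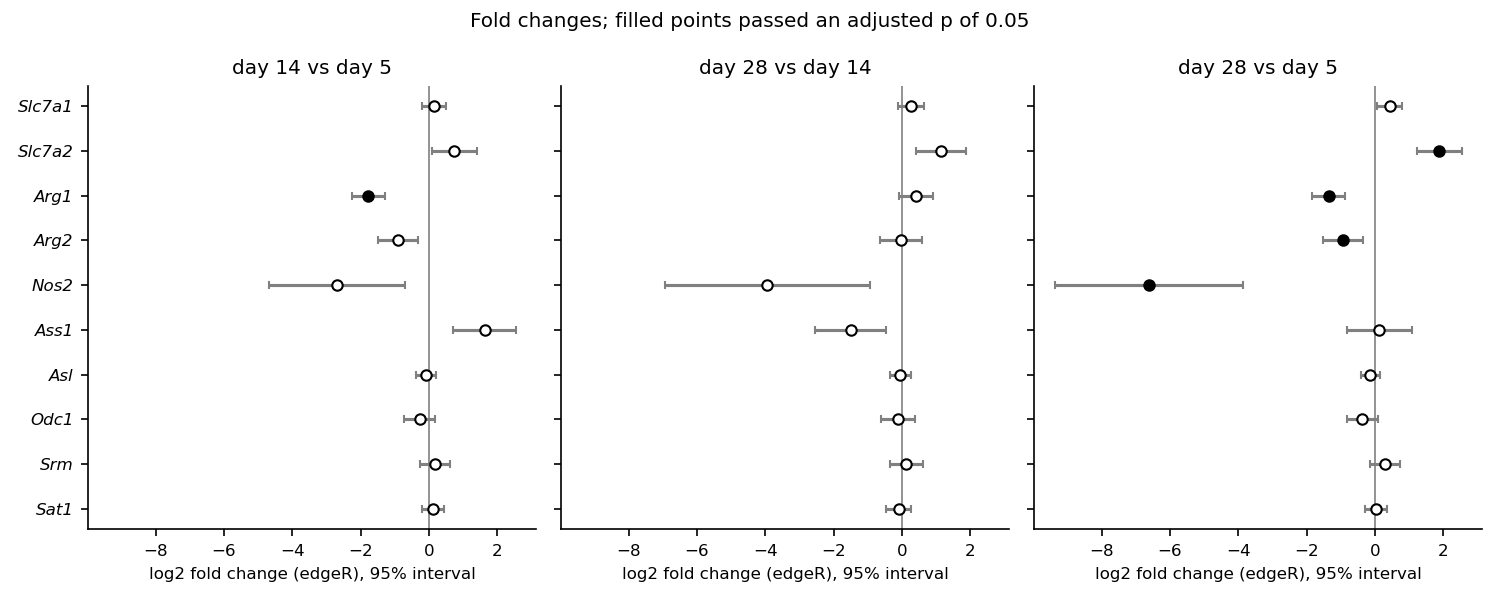
Log2 fold change (horizontal axes) of the 10 genes in each of the 3 comparisons between time points, from edgeR, with 95% intervals as whiskers. Filled points passed an adjusted p of 0.05: Arg1 at -1.77 from day 5 to 14, and Slc7a2 at 1.88, Arg1 at -1.35, Arg2 at -0.94 and Nos2 at -6.61 from day 5 to 28.

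The arginine carriers come first. Slc7a2 (chr8:40862396-40922308, plus strand), which encodes CAT2, a carrier induced together with arginase or nitric oxide synthase in activated macrophages, was at 4.67, 5.01 and 2.10 FPKM in the day 5 libraries. It was at 6.77 and 6.27 at day 14 and at 15.8 and 13 at day 28. The values of the 3 time points did not overlap, and both day 28 libraries were higher than all earlier ones. Slc7a2 rose 3.69-fold by day 28 (log2 change 1.88, SE 0.29, 95% interval 1.23 to 2.54, adjusted p = 0.00457). The changes over the 2 shorter steps were 0.74 (adjusted p = 0.168) and 1.14 (adjusted p = 0.21) and were not called. Without day 28 replicate 1, which leaves 1 library at day 28, the change from day 5 was 1.73. The 6 Schwann cell markers summed to 10.7 to 11.5 FPKM at day 5 and 17.7 to 19.9 at day 28. At day 14 they summed to 12.9 and 19.9, so that replicate 2 already reached the highest sum. Nearly all of it came from Mbp, and the part of these markers in the rise of Slc7a2 was not tested.

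Slc7a1 (chr5:148327410-148399904, minus strand), which encodes the constitutive carrier CAT1, was at 4.79, 4.22 and 3.49 FPKM at day 5. Its values were 5.13 and 4.11 at day 14 and 5.28 and 5.82 at day 28. Day 28 lay above day 5 without overlap, but the log2 change of 0.43 (95% interval 0.07 to 0.78) had an adjusted p of 0.0969 and was not called. The FPKM ratio of Slc7a2 to Slc7a1 within a library was 0.976, 1.19 and 0.602 at day 5, 1.32 and 1.53 at day 14, and 2.98 and 2.23 at day 28. Slc7a2 thus went from about the level of Slc7a1 to above it in both late libraries, as a description without a test.

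Arg1 (chr10:24915221-24927484, minus strand), the cytosolic arginase, was at 998, 656 and 893 FPKM at day 5. It was at 235 and 262 at day 14 and at 387 and 271 at day 28. Every later library lay below every day 5 library, and both day 28 libraries lay above both of day 14. Arg1 fell 3.4-fold by day 14 (log2 change -1.77, SE 0.22, 95% interval -2.26 to -1.28, adjusted p = 0.00926) and stood 2.56-fold lower at day 28 than at day 5 (log2 change -1.35, SE 0.21, adjusted p = 0.00485). The call at day 14 was lost with limma on log2(FPKM + 1) without a filter (-1.75, adjusted p = 0.0716) and under a replicate block (-1.69, adjusted p = 0.061). The difference of 0.41 between day 14 and day 28 was not called (95% interval -0.09 to 0.92, adjusted p = 0.496). Whether the second step differed from the first was tested directly, as the log2 change after day 14 minus that before it: Arg1 gave 2.18 (95% interval 1.28 to 3.08), with an unadjusted p of 0.000353 and an adjusted p of 0.124. In that test 0 of 10 members were called by edgeR, against 0.0156% of all genes. At an unadjusted p under 0.05 there were 2 of them, Arg1 and Ass1, beside 12.6% of all genes, and DESeq2 called both, beside 1.53%. With 1 library left out, the value for Arg1 was 1.88 to 2.40.

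Arg2 (chr12:79130777-79156301, plus strand) was at 237, 169.9 and 193 FPKM at day 5. It was at 141 and 71.0 at day 14 and at 105 and 101 at day 28. All later libraries lay below those of day 5, and the day 14 libraries were 1 above and 1 below both of day 28. Arg2 fell 1.92-fold from day 5 to day 28 (log2 change -0.94, SE 0.26, 95% interval -1.52 to -0.36, adjusted p = 0.0381), while its change of -0.91 by day 14 had an adjusted p of 0.0738. Single libraries decided the call at day 28. Leaving out day 5 replicate 1, 2 or 3 moved its adjusted p to 0.121, 0.0623 and 0.0811. In these fits 820, 916 and 967 of all genes were called, against 1959 in the main fit. With any 1 library left out the change from day 5 to day 28 was -1.05 to -0.80. The change by day 14 was -1.48 without day 14 replicate 1 and -0.49 without replicate 2, each with 1 library left at day 14. The 3' end of Arg2 overlaps that of Vti1b on the opposite strand by 285 bases. Since the kit and the counting are not described as keeping strand, fragments there could be from either gene, and 15.6% of the Arg2 stretches of 75 bases were shared with Vti1b.

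The FPKM ratio of Arg1 to Arg2 was 4.22, 3.86 and 4.63 at day 5, 1.66 and 3.69 at day 14, and 3.70 and 2.67 at day 28. Arg1 was thus the higher arginase in all 7 libraries, with the day 5 ratios above all later ones.

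Nos2 (chr11:78920787-78960254, plus strand), the inducible nitric oxide synthase, was at 10.5, 2.85 and 6.34 FPKM at day 5, which rested on 969, 222 and 527 fragments. At day 14 it was at 2.03 FPKM in replicate 1 and 0.0823 in replicate 2, from 139 and 7 fragments. At day 28 both libraries held 7 fragments, 0.0478 and 0.0960 FPKM. An exact Poisson 95% interval for 7 fragments runs from 2.81 to 14.4, which covers counting error only. Day 28 and day 14 replicate 2 were thus close to the limit of detection, and day 14 replicate 1 stood nearer to the lowest library of day 5 than to its own replicate. Nos2 fell from day 5 to day 28 (log2 change -6.61, SE 1.23, 95% interval -9.37 to -3.85, adjusted p = 0.00924), the largest change among the 10 genes in any of the 3 comparisons. The size depends on the scale at so few fragments: limma gave -5.11 on log2(FPKM + 0.1), and -2.68 on log2(FPKM + 1), where the call was lost without a filter (adjusted p = 0.0526). The changes over the 2 steps, -2.68 (adjusted p = 0.109) and -3.94 (adjusted p = 0.277), were not called.

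Single libraries moved the size of the Nos2 changes. Without day 28 replicate 1 or 2 the log2 change from day 5 to day 28 was -6.07 and -7.05, each with 1 library left at day 28. Without day 14 replicate 1 the log2 changes of the 2 steps were -6.28 and -0.34, and without day 14 replicate 2 they were -1.69 and -4.93. Each of these 2 fits leaves 1 library at day 14, so only the sizes are given. By size, the step in which Nos2 was lost depended on which day 14 library was used. Day 14 replicate 1 was also the library with the highest summed fibroblast markers, and its Col1a1 was at 82.4 FPKM against 29.9 in replicate 2. The part of these markers in the difference was not tested.

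Arg1 and Nos2 act on the same substrate, so their ratio was taken within each library. On the log2 scale, with 0.1 FPKM added to each gene, the ratio was 6.56, 7.80 and 7.11 at day 5, 6.79 and 10.49 at day 14, and 11.36 and 10.43 at day 28. The means were 7.16 ± 0.62 (SD, n = 3), 8.64 ± 2.62 (SD, n = 2) and 10.89 ± 0.65 (SD, n = 2). Arg1 exceeded Nos2 in every library, and both day 28 values lay above all of day 5. An exact permutation test over the 210 assignments of libraries to time points gave p = 0.133 (two-sided; the smallest p this design allows is 0.00952), so the difference among the 3 time points did not pass the test. Since Nos2 was below 0.1 FPKM in 3 libraries, the size of the ratio there depends on the value added: the change from day 5 to day 28 was 3.74, but 5.04 with nothing added and 1.32 with 1 FPKM added. Day 14 spanned nearly the whole range, with replicate 1 among the day 5 libraries and replicate 2 among those of day 28.

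Citrulline is returned to arginine by Ass1 and Asl. Asl (chr5:130011258-130029247, minus strand), the lyase, was at 29.4, 32.4 and 27.8 FPKM at day 5, 30.7 and 25.3 at day 14, and 26.3 and 27.6 at day 28. The log2 changes were -0.09, -0.05 and -0.14, none of them called, with a 95% interval of -0.42 to 0.15 from day 5 to day 28.

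Ass1 as listed was at 5.16, 1.53 and 2.35 FPKM at day 5, 8.54 and 10.1 at day 14, and 3.02 and 3.58 at day 28. Both day 14 libraries lay above all others. The log2 changes were 1.63 by day 14 (SE 0.41, 95% interval 0.71 to 2.54, adjusted p = 0.0547) and -1.50 after it (SE 0.46, adjusted p = 0.235), neither of which was called. Without day 5 replicate 1 the first step was 2.27 with an adjusted p of 0.0257, where 63 of all genes were called, against 614 in the main fit. Without day 14 replicate 1, which leaves 1 library at day 14, the first step was 1.75. These values rested on 45.08 to 324.69 fragments per library. The fragments were not whole numbers in any of the 7 libraries, whereas those of the other members were whole throughout, apart from Arg2 in 1 library.

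The fragments of Ass1 and Gm5424 added up to a whole number in all 7 libraries, within a tolerance of 0.01. In the day 5 libraries 179.94 and 603.05 made 783, 45.08 and 772.92 made 818, and 73.68 and 578.32 made 652. The share listed under Ass1 was 23.0, 5.51 and 11.3% at day 5, 39.1 and 29.0% at day 14, and 7.13 and 13.7% at day 28. This share was higher in both day 14 libraries than in any other library. Per 1000000 fragments of the library, the sum of both was 29.9, 38.0 and 29.8 at day 5, 31.4 and 53.8 at day 14, and 66.4 and 39.9 at day 28. When both were summed before the fit, the log2 change was 0.27 by day 14 (95% interval -0.28 to 0.83, adjusted p = 0.535) and 0.28 after it (95% interval -0.33 to 0.88, adjusted p = 0.717), without a peak. Over the whole interval the summed value differed by 0.55 (95% interval 0.01 to 1.10, adjusted p = 0.156). Gm5424 on its own was not called in any comparison. The sum of 10 neutrophil markers was also highest at day 14, at 599 and 585 FPKM against 153 to 356 in the other libraries, carried by S100a8 and S100a9. Others of the list did not follow, with Csf3r at 66.6 to 72.7 FPKM at day 5 and 70.5 and 45.1 at day 14, and Elane was listed at 0 in every library. The part of such cells in the Ass1 values was not tested.

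**Figure D3:**
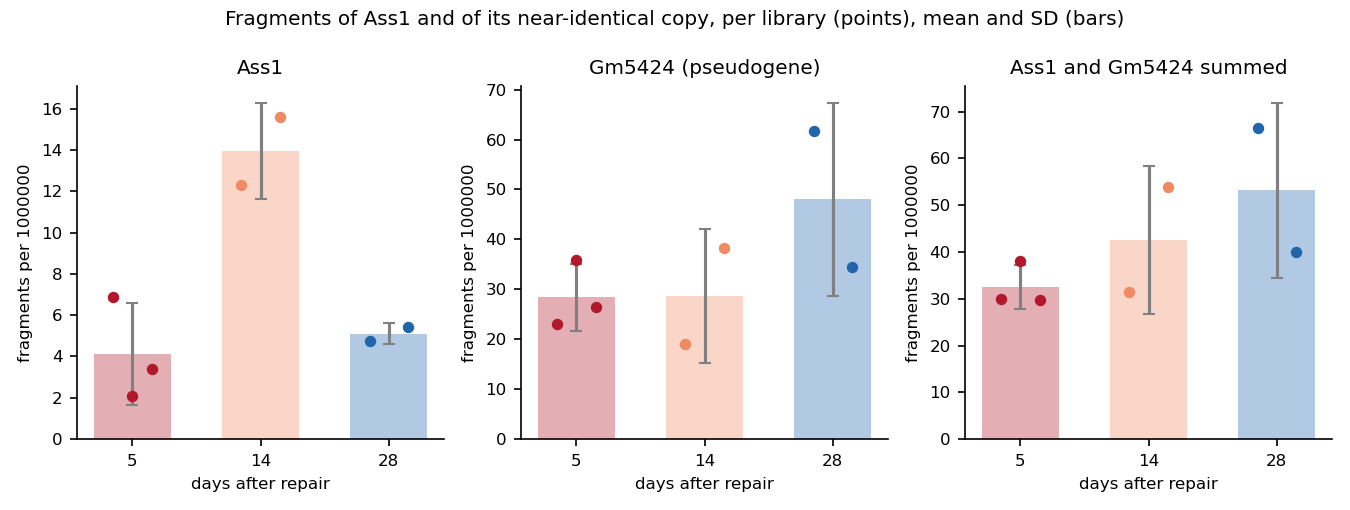
Fragments per 1000000 fragments of the library (vertical axes, linear and from 0) listed under Ass1, under its pseudogene Gm5424 and under both, at each time point. Points are libraries, bars are means and whiskers 1 SD (n = 3, 2 and 2); Ass1 alone was highest at day 14, at 12.3 and 15.6, while the sum at day 14, 31.4 and 53.8, lay within the range of the other days.

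None of the 3 polyamine genes was called in any comparison. Odc1 (chr12:17544794-17551505, plus strand), the ornithine decarboxylase that makes putrescine, was at 52.0, 42.6 and 44.6 FPKM at day 5, 48.1 and 28.7 at day 14, and 32.0 and 39.0 at day 28. Day 28 lay below day 5 without overlap, but the log2 change of -0.37 (95% interval -0.83 to 0.08, adjusted p = 0.238) was not called. The 2 libraries of day 14 differed more from each other than the means of any 2 time points. The change by day 14 was -0.68 without day 14 replicate 1 and 0.06 without replicate 2, each with 1 library left at day 14. Of the Odc1 stretches of 75 bases, 30.5% recurred in 13 other annotated genes. Of those, 2 were in the deposited table, AW146154 with 14 to 87 fragments per library and Gm15645 with 70 to 142, far below the 1514 to 2973 of Odc1, and the Odc1 fragments were whole numbers in every library.

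Srm (chr4:148591503-148594993, plus strand), the spermidine synthase, was at 12.5, 12.8 and 14.9 FPKM at day 5, 12.1 and 17.9 at day 14, and 14.6 and 18.4 at day 28. The ranges of the 3 time points overlapped, and the log2 change from day 5 to day 28 was 0.31 (95% interval -0.13 to 0.75, adjusted p = 0.307).

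Sat1 (chrX:155213132-155216449, minus strand) was at 418, 402 and 367 FPKM at day 5, 485 and 372 at day 14, and 435 and 365 at day 28. Its log2 change from day 5 to day 28 was 0.03 with a 95% interval of -0.30 to 0.36, and it was not called. Sat1 stayed between the 185th and 241st place among all genes in the 7 libraries. The FPKM ratio of Sat1 to Odc1, the catabolic to the first synthetic step, was 8.04, 9.43 and 8.23 at day 5, 10.1 and 12.9 at day 14, and 13.6 and 9.34 at day 28, so that 3 of the 4 later values lay above all of day 5.

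The wider pathway was read from 9 lists of 68 other genes, chosen by function, of which 57 passed the filter on low counts. By day 14, 1 of the 57 was called, Myc, higher, beside 4.78% of all genes. From day 14 to day 28 none was called by edgeR, 11 had an unadjusted p under 0.05 and DESeq2 called 2, beside 0.0622%, 12.2% and 2.58% of all genes. Between days 5 and 28, 14 of 57 were called, 7 in each direction, beside 15.2% of all genes, and DESeq2 called 16, beside 19.3%. Their median log2 change was -0.06, beside 0.03 over all genes tested.

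**Figure D4:**
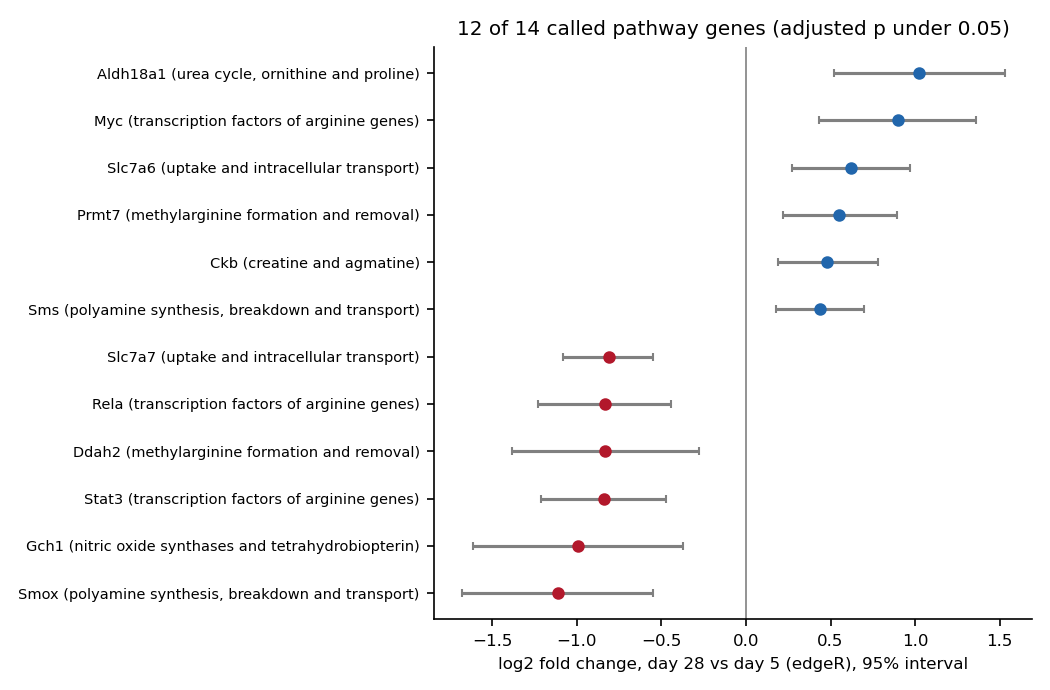
Log2 fold change from day 5 to day 28 (horizontal axis) with 95% intervals from edgeR for 12 of the 14 genes of the pathway outside the 10 members that passed an adjusted p of 0.05. Each is named with its list; 6 of those drawn rose, from Sms at 0.44 to Aldh18a1 at 1.02, and 6 fell, from Slc7a7 at -0.81 to Smox at -1.11.

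Among the 5 tested genes of transport, Slc7a6 and Slc7a7 went opposite ways. Both encode light chains that exchange cationic for neutral amino acids across the membrane. Slc7a7 was at 49.1, 53.0 and 50.5 FPKM at day 5, 53.9 and 43.6 at day 14 and 28.3 and 29.1 at day 28, and it fell by 0.81 on the log2 scale from day 5 to day 28 (adjusted p = 0.00357). Slc7a6, at 2.81 to 3.02 FPKM at day 5, was at 4.84 and 3.96 at day 28 (log2 change 0.62, adjusted p = 0.0291).

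Nitric oxide synthases need tetrahydrobiopterin as a cofactor, and Gch1 encodes the first enzyme of its synthesis. Gch1 was at 92.7, 70.5 and 58.1 FPKM at day 5, 60.4 and 31.1 at day 14 and 33.9 and 39.7 at day 28, and fell 1.99-fold (log2 change -0.99, SE 0.28, adjusted p = 0.0412). It was the 1 gene called of 6 tested in its list. Ddah2, which clears methylarginines, natural inhibitors of the synthase, had a log2 change of -0.83 (adjusted p = 0.0486), and that of Prmt7, a methyltransferase of protein arginine, was 0.55 (adjusted p = 0.0357). They were the 2 called of the 8 tested genes of methylarginine formation and removal. Over all genes tested, 15.2% were called from day 5 to day 28. Of the other nitric oxide synthases, Nos1 was below the filter and Nos3 was not called (log2 change 1.30, 95% interval -1.0 to 3.60). Nos3 was close to the limit of detection, at 0.0116 to 0.183 FPKM from 1 to 26 fragments per library.

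Ornithine is also linked to proline. Aldh18a1, which makes the shared precursor of proline and ornithine from glutamate, was at 1.72, 2.13 and 1.36 FPKM at day 5, 2.64 and 3.21 at day 14 and 3.20 and 3.81 at day 28. It rose 2.03-fold by day 28 (adjusted p = 0.0179). Oat, which turns ornithine into that precursor, was at 47.8 to 58.5 FPKM at day 5 and 45.8 and 49.5 at day 28 and was not called (log2 change -0.17, 95% interval -0.45 to 0.11). Otc and Cps1, which complete the urea cycle in liver, were below the filter.

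Beyond Odc1, Srm and Sat1, 2 of 9 tested genes of polyamine synthesis, breakdown and transport were called from day 5 to day 28, beside 15.2% of all genes. Smox, which oxidises spermine back to spermidine, was at 203, 149 and 156 FPKM at day 5, 121 and 64.5 at day 14 and 71.1 and 84.9 at day 28, a 2.16-fold fall (log2 change -1.11, SE 0.25, adjusted p = 0.02). Sms, the synthase that makes spermine from spermidine, rose 1.36-fold (log2 change 0.44, adjusted p = 0.0324). No antizyme, which marks the decarboxylase for degradation, no antizyme inhibitor, which protects it, and no tested gene of hypusine, a use of spermidine, was called from day 5 to day 28. DESeq2 called none of these 7 either, and none had an unadjusted p under 0.05, beside 31.5% of all genes. By day 14 the inhibitor Azin1 had a log2 change of -0.63 that edgeR did not call (adjusted p = 0.0705), and it was the 1 gene of the list that DESeq2 called, beside 10.6% of all genes. Ckb, the brain-type creatine kinase, was the 1 of 5 called in the creatine list from day 5 to day 28 (log2 change 0.48, adjusted p = 0.0373), again beside 15.2% of all genes.

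Of 11 transcription factors known to act on arginine genes, 4 were called from day 5 to day 28, beside 15.2% of all genes. Among them, Stat3 had a log2 change of -0.84 (adjusted p = 0.0114) and Rela, a subunit of NF-kB, one of -0.83 (adjusted p = 0.0156). Myc, an activator of Odc1, rose by 0.97 by day 14 (adjusted p = 0.0369) and by 0.90 by day 28 (adjusted p = 0.0215). Stat6, which carries the IL4 signal to Arg1, was at 71.4 to 81.5 FPKM in all 7 libraries and was not called (log2 change -0.06, 95% interval -0.31 to 0.19 from day 5 to day 28). These are levels of RNA and say nothing of the activity of the proteins.

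The genes whose log2(FPKM + 1) followed Arg1 most closely over the 7 libraries, among 7612 with a mean of at least 5 FPKM, were Gabpa, Tmed2 and Atrnl1, with Pearson's r of 0.986, 0.985 and 0.984. For Nos2 they were Nasp, Plbd1 and Apoc2, with r of 0.996, 0.993 and 0.993. Plbd1 was at 111, 59.5 and 83.4 FPKM at day 5, 54.6 and 35.3 at day 14 and 28.7 and 31.4 at day 28, with replicate 1 of day 14 again between day 5 and day 28. With 7 points that share 3 time points, and the likest of so many genes taken, these are descriptions only.

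RefSeq promoter windows of GRCm38.p6 were at hand for 4 of the 10 genes, Ass1, Slc7a1, Odc1 and Sat1, in 5 windows, and the 250 bases before the start were searched on both strands. TATAAA, present in 12.4% of all 32851 windows, was found in 1 window of Slc7a1, as was TTCNNNGAA, a STAT motif present in 7.02%. CACGTG, an E-box bound by MYC among others and present in 6.02%, was found in that of Ass1. The NF-kB motif, GGG and CC with any 5 bases between, occurred in 45.8% of all windows and in those of Ass1, Odc1 and Slc7a1. TGACGTCA (1.55%), TGATGNAA (3.45%), TTGCNNAA (9.56%) and the STAT6 motif, TTC and GAA with any 4 bases between (5.85%), were in none of the 5. A match in these letters is not evidence of binding, and 6 genes, Arg1 and Nos2 among them, were not examined.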

How the data were processed

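Sorted macrophages were profiled by RNASeq of polyA RNA, single-end, in 7 libraries. The authors trimmed reads with cutadapt 1.8, mapped them to mm10 with TopHat2 2.0.13 and quantified genes with Cuffdiff 2.2.1. The expected counts deposited by the authors are estimated fragments per gene, of which 1.01% of values were not whole. The deposited scaled signal is the same count times 1 factor per library, and FPKM was computed by the authors from it. Treatment of multi-mapping reads and strand is not given in the sources used here. Status was a failure for 4 genes, none of them a member.

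Expected counts were rounded and tested with edgeR 4.0.16 (R 4.3.3; TMM scaling, filterByExpr, quasi-likelihood F test, time point as the only factor, 4 residual degrees of freedom), adjusted by Benjamini-Hochberg over 12858 genes. DESeq2 1.42.0, limma 3.58.1 on log2(FPKM + 1) or log2(FPKM + 0.1), other scalings, no filter, a replicate block and each library left out were alternatives. Only the main edgeR fit was tested on simulated data, for day 14 against day 5 and with the same relative spread set for every gene. Totals of 18027190 to 35247116 fragments put a floor of 3 fragments at 8.51e-06 to 1.66e-05% of a library. Intervals cover 95%. The tests set differences against the spread between these libraries, and whether that is a spread between single mice is not given. Shared stretches were exact matches of 75 bases, on either strand, between GENCODE transcripts. The members and lists were chosen with earlier results of these data known. Named were all 10 members, the other listed genes called in any comparison, and the 3 genes most like Arg1 and Nos2. A few uncalled genes of the lists (Nos3, Oat, Stat6, Azin1, Amd1 and Amd2) and the genes that share sequence with members were named after their values were seen. The pair of Ass1 and Gm5424 was summed as an alternative added after the data were seen. Results for a few listed genes are not reported here, although the counts include them.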

Additional observations from a re-analysis of the deposited data

How the results depend on the processing

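The 10 genes gave 673 values under alternative settings, of which 631 kept their direction. None of the 85 alternative values for a gene called in the main comparisons reversed. Arg1 from day 5 to day 28 was called under all 17 alternatives (adjusted p from 7.4e-10 to 0.0395) and by day 14 under 15 of 17 (1.49e-15 to 0.0716). Slc7a2 from day 5 to day 28 was called under 16 of 17 (2.41e-09 to 0.051), Nos2 under 14 of 17 (9e-07 to 0.116) and Arg2 under 8 of 17 (0.000737 to 0.178).

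From day 5 to day 14, DESeq2 called 3 members, a test without the expression filter 5 and limma on log2(FPKM + 1) without a filter 0. Over all genes the last 2 of these called 1429 and 0. From day 14 to day 28 DESeq2 called 2 and the test without a filter 3, the latter beside 390 of all genes. Between days 5 and 28 limma without a filter called 2, beside 1042 of all genes. For the second step minus the first DESeq2 and the test without a filter each called 2, beside 197 and 229 of all genes. Over all genes, DESeq2 called 1366, 332 and 2485 in the 3 comparisons of time points, where edgeR called 614, 8 and 1959. Leaving out day 5 replicate 1, 2 or 3 gave 2, 1 and 1 members from day 5 to day 14, beside 63, 106 and 52 of all genes. From day 5 to day 28 each gave 3 members, beside 820, 916 and 967 of all genes. From day 14 to day 28 and for the difference of the steps these fits called no gene at all. Leaving out a day 14 or day 28 library leaves 1 in its group, so those fits are left out of these counts. The change in the log2 ratio of Arg1 to Nos2 from day 5 to day 28 was 3.74, 5.04 without a pseudocount and 1.32 with a pseudocount of 1. In the exact permutation test these had p of 0.133, 0.124 and 0.267 and did not pass. With 1 library left out the change was 3.28 to 4.20. Without a day 5 library the groups are of equal size, and the smallest p the test allows is above 0.05, so it could not pass. Without a day 14 or day 28 library 1 is left in that group, and no p is read.

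The labels do not say whether equal replicate numbers mark a shared mouse, litter or day. Same-numbered libraries correlated in their deviations from the time-point mean by -0.0538 to 0.175. In a group of 2 libraries these deviations are equal and opposite, and libraries of different number were not compared. The check therefore cannot tell whether the libraries were paired. With a replicate block 0 members were called from day 5 to day 14 (Arg1 at an adjusted p of 0.061) and 3 from day 5 to day 28, without Arg2, and over all genes 6 and 735 were called. With the day 28 numbers swapped in the block, an alternative added later, 2, 1 and 4 members were called from day 5 to 14, 14 to 28 and 5 to 28. Over all genes that block called 357, 63 and 1579.

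The 42 values that changed direction were of uncalled results, and the cause was not tested apart from Ass1, where the sum with Gm5424 removes the split between the copies: it gave 0.28 after day 14 and 0.00 for the difference of the steps. Arg2 after day 14 was 0.04 under limma and under both blocks, and Sat1 from day 5 to day 28 was -0.03 and -0.02 with the blocks. For the difference of the steps, limma gave 1.36 (pseudocount 0.1) or 1.17 for Nos2 and 0.01 for Srm. The others came from leaving out 1 library. By day 14 the ranges were 0.00 to 0.31 for Slc7a1, -0.07 to 0.30 for Sat1, -0.22 to 0.04 for Asl, -0.68 to 0.06 for Odc1 and -0.14 to 0.44 for Srm. After day 14 they were -0.45 to 0.54 for Arg2, -0.18 to 0.09 for Asl, -0.43 to 0.30 for Odc1, -0.12 to 0.45 for Srm and -0.27 to 0.10 for Sat1. Between days 5 and 28 they were -0.11 to 0.14 for Sat1 and -0.18 to 0.77 for Ass1. For the difference of the steps they were -3.24 to 5.94 for Nos2, -0.57 to 0.18 for Sat1, -0.18 to 0.44 for Slc7a1, -0.22 to 0.31 for Asl, -0.48 to 0.98 for Odc1 and -0.56 to 0.60 for Srm. Nos2 was below the filter when only the libraries of days 14 and 28 were fitted. Nos2 at day 28 rested on 7 fragments in each library, which limits its precision.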

Other observations

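Amd1 and Amd2, near-identical genes of the S-adenosylmethionine decarboxylase that supplies the aminopropyl groups of spermidine and spermine, divided their fragments in a like way to Ass1 and Gm5424. This pair was singled out after its values were seen. Amd1 was listed at 6.22 FPKM in day 5 replicate 3 and between 0.0153 and 0.0258 FPKM in the other 6 libraries. Amd2 was at 12.4 FPKM in day 5 replicate 3 and between 15.6 and 22.5 in the others. Their fragments were 409.56 and 812.44 in that library, which add up to 1222. Per 1000000 fragments of the library, the sum of both was 62.9, 55.1 and 55.8 at day 5, 49.6 and 52.9 at day 14, and 63.7 and 49.8 at day 28, with day 5 replicate 3 inside the range of the other libraries. Amd2 was not called in any comparison, and Amd1 was below the filter. Neither gene was therefore read on its own as a change in polyamine synthesis.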
